A study of Mus musculus with 8 samples.

Results

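The 45 genes described here are the cell cycle and proliferation genes of cultured mouse dermal fibroblasts, a written list of 17 genes of S phase and 28 genes of mitosis. They were picked by symbol from a deposited table of 15111 genes, and all 45 were found in it. Primary dermal fibroblasts were isolated from adult mice of both groups after tamoxifen feeding. The authors first cultured them in complete medium with serum, for a time that is not given. The cells were then grown for 72 h on fibronectin in serum replacement medium. Control mice were Tgfb1 fl/fl and carried no Cre recombinase, whereas TGFβ1FKO mice were Tgfb1fl/fl:Col1a2-CreERT, in which the *Col1a2* promoter drives a Cre that tamoxifen activates. Both groups thus carried the floxed alleles and both received tamoxifen, and Cre itself cannot be told apart from the loss of *Tgfb1*. RNA of 4 control and 4 TGFβ1FKO cultures was sequenced. The labels do not say that each culture came from a mouse of its own, so the p-values measure only the spread between these samples, part of which may be technical. In bulk RNA a smaller number of cycling cells and less RNA in each cycling cell cannot be told apart.

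A cell that commits to division passes a restriction point in G1, where D and E type cyclins with their kinases switch off the retinoblastoma pocket proteins and free the E2F factors. E2F then drives the genes of DNA replication in S phase, and B-MYB with FOXM1 and the MuvB core drives those of G2 and mitosis. TGFβ1 is known as a brake on the cycle of epithelial cells, through CDK inhibitors and MYC, whereas in fibroblasts it can also act as a mitogen. The transcripts of S phase and mitosis genes are therefore a usual readout of how many cells of a culture are dividing.

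The promoters of these genes were searched for motifs known from the promoters of cell cycle genes. Of these promoters 5 are shown here, picked after the motif counts had been seen as clear cases for S phase and for mitosis. Windows of 300 bases, from 250 before to 50 after the RefSeq start on GRCm38.p6, were searched on both strands for the core of the cell cycle homology region (CHR), TTTGAA, for CCAAT, and for the E2F types TTTGGCGC and TTTCGCGC. The sequences are from RefSeq, 5′ to 3′ on the strand of the gene, and capitals mark every match on either strand, so that ATTGG is CCAAT and TTCAAA is the CHR core on the other strand. *Mcm6* (chr1:128359656-128359955, minus strand) and *Mcm5* (chr8:75109259-75109558, plus strand) encode subunits of the replicative helicase. *Ccnb2* (chr9:70421505-70421804, minus strand) encodes cyclin B2, *Cdk1* (chr10:69352863-69353162, minus strand) the mitotic kinase and *Top2a* (chr11:99024140-99024439, minus strand) topoisomerase II alpha.
Mcm6: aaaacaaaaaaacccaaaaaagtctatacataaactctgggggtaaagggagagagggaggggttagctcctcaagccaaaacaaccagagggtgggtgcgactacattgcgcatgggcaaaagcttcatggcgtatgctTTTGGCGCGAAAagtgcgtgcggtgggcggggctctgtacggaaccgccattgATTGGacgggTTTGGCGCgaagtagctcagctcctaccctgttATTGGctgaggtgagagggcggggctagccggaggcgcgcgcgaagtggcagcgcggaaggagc
Mcm5: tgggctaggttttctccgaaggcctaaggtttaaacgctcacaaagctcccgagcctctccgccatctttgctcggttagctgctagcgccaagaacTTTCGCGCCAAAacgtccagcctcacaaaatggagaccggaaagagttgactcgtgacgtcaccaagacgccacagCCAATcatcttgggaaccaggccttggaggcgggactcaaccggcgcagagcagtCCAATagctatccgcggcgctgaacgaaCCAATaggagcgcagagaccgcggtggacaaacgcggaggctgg
Ccnb2: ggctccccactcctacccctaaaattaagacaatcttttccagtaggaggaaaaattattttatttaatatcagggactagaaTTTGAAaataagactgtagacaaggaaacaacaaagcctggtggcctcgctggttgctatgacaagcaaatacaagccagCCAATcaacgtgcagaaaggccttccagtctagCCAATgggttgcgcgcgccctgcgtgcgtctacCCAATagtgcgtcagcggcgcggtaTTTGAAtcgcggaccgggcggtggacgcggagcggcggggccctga
Cdk1: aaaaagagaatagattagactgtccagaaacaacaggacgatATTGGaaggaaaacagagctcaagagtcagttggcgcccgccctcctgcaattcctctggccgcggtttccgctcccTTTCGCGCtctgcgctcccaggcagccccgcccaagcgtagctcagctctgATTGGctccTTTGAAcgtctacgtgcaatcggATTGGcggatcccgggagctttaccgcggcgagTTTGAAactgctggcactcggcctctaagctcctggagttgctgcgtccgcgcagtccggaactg
Top2a: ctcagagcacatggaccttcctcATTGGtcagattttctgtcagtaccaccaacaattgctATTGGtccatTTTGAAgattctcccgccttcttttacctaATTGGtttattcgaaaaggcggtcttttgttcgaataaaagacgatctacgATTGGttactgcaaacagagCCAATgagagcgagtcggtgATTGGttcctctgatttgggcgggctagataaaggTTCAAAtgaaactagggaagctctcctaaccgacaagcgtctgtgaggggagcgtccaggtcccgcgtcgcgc

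In *Mcm6* there were 3 E2F type matches and in *Mcm5* there were 2, in each case with a pair that overlaps on opposite strands, and neither window held a CHR core. *Ccnb2* held 2 CHR cores with 3 CCAAT matches, *Top2a* 2 with 6, and *Cdk1* 2 with 3 beside 1 E2F type match. Of the 45 genes, 38 had a window in the RefSeq table, and *Mcm4*, *Gins2*, *Ccne2*, *Ccna2*, *Aurkb*, *Kif20a* and *Tpx2* did not. The CHR core was present in 18 of 24 mitosis genes (75.0%) and in 1 of 14 S phase genes (7.14%), against 20.2% of the 27025 genes of the RefSeq table. CCAAT was present in 21 of 24 mitosis genes (87.5%) and 9 of 14 S phase genes (64.3%), against 41.1% of all genes. An E2F type match was present in 6 of 14 S phase genes (42.9%) and in 1 of 24 mitosis genes (4.17%), against 0.929% of all genes. CHR core and CCAAT occurred together in 17 of 24 mitosis genes (70.8%), against 7.97% of all genes. Among the 10781 genes of the deposited table that had a window, the CHR core was present in 14.3% and CCAAT in 42.9%. An E2F type match was present in 1.73% of them, and CHR core and CCAAT together in 5.9%. Some windows, among them those of *E2f1*, *Cdc6*, *Kif2c*, *Cdca3* and *Cdca8*, lay wholly inside the gene as bounded by GENCODE. Such a window need not hold the promoter. Of these genes *E2f1* and *Cdc6* counted as without an E2F type match, and *Kif2c*, *Cdca3* and *Cdca8* as with a CHR core. These shares describe letters in a window, and a match is not a bound site.

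The label of the cultures and the deletion were checked first. *Tgfb1* (ENSMUSG00000002603, chromosome 7 of GRCm38, 25687002 to 25705077) had normalised counts of 1401, 1298, 1483 and 1314 in control and of 326.4, 259.9, 228.4 and 294.7 in TGFβ1FKO fibroblasts, which left 20.2% of the control level (log2 fold change -2.31, SE 0.10, adjusted p = 1.53e-07, limma with Benjamini-Hochberg adjustment). All 10 fibroblast markers were in the table, among them the collagen genes *Col1a1* and *Col1a2*, with a summed normalised count of 1341000 to 1640000 in control and 1392000 to 1554000 in TGFβ1FKO libraries. The depth, as reads recovered on the listed genes, was 16988998 to 21806579 in the control libraries and 17445002 to 23071528 in the TGFβ1FKO libraries. The libraries were made without strand, so that reads of a gene and of a gene on the opposite strand cannot be separated.

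All 45 cell cycle genes were expressed in both groups, with mean normalised counts over the 8 libraries from 95.6 for *Cdc6* to 3170 for *Rrm1*. Levels between genes were compared per kilobase of exon. On this scale *Cdc20*, the activator of the anaphase promoting complex, stood highest among the 45 in control fibroblasts with a level of 717.5 ± 101 (SD, n = 4), followed by *Ccnb2* with 600.2 ± 68.4 and *Pcna*, the sliding clamp of the DNA polymerases, with 584.4 ± 61.3. The SD ranges of these 3 genes overlapped, and those of *Rrm2* (378.2 ± 71.0) and *Plk1* (374.2 ± 41.3) lay below them. The lowest levels per kilobase were those of *Cdc6* (18.8 ± 3.88), *Ccne2* (29.0 ± 5.50), *Ttk* (32.0 ± 4.22) and *Cenpf* (34.0 ± 4.38), of which the last 3 overlapped in their SD ranges. For scale, *Cdkn1a*, the CDK inhibitor p21, had a level of 4564 ± 196 per kilobase in control fibroblasts, above all 45.

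**Figure D1:**
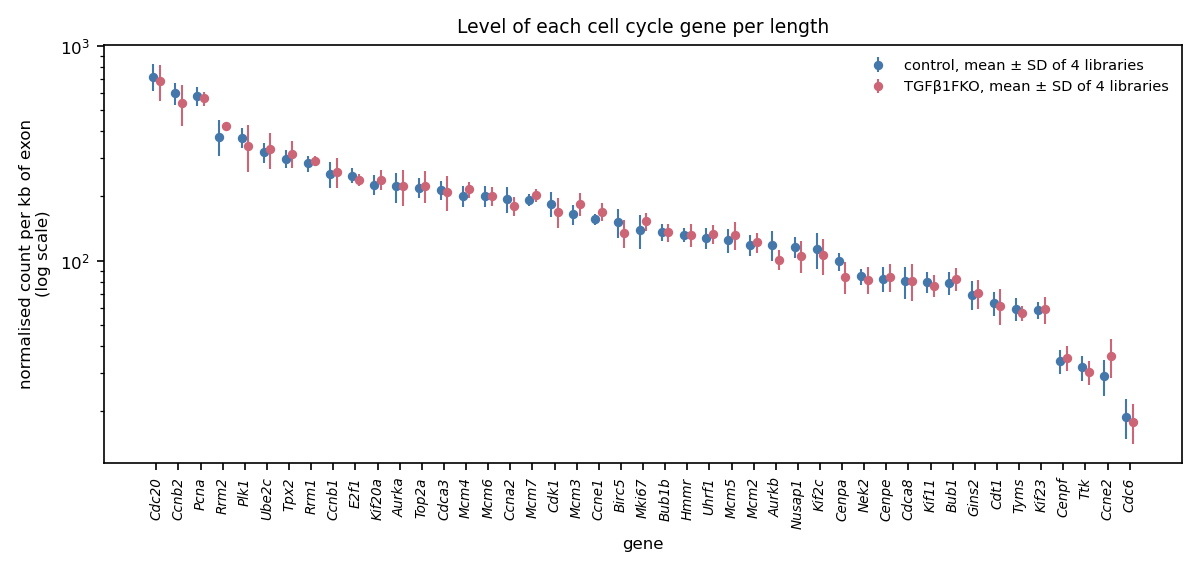
Normalised count per kilobase of exon (log axis) of each of the 45 genes, ordered by the control level, with points for the mean and bars for the SD of 4 control (blue) and 4 TGFβ1FKO (red) libraries. The order runs from *Cdc20* (717.5 in control) to *Cdc6* (18.8 in control), and the red and blue points of each gene sit side by side.

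The first question was whether TGFβ1FKO cultures, which kept 20.2% of the control *Tgfb1* level, carried more or less RNA of dividing cells. No difference passed the test. Of the 45 genes, 0 were called at an adjusted p under 0.05 with an absolute log2 fold change over 0.6 (limma), where 13 of all 15111 genes (0.086%) were. At an unadjusted p under 0.05 there were also 0 of 45, against 7.46% of all genes, of which 3.87% were lower and 3.59% higher in TGFβ1FKO. DESeq2's test against 0 and edgeR's test on the recovered reads likewise gave 0 of 45 at that unadjusted level. With 1 library left out that number was between 0 and 4, the 4 being *Ccna2*, *Cenpa*, *Birc5* and *Aurkb*, all lower in TGFβ1FKO, without control replicate 4. Without control replicate 4 and TGFβ1FKO replicate 2 together it was 2 (*Cenpa* and *Aurkb*), and the number called stayed at 0 throughout. Control and TGFβ1FKO libraries overlapped in all 45 genes, while 573 genes (3.79%) of the table did not overlap. The log2 fold change was below 0 in 22 genes and above it in 23, with a median of 0.00 (0.003 over all genes) and a range from -0.25 in *Cenpa* to 0.31 in *Ccne2*. The summed normalised count of the 45 genes was 33700 ± 3210 in control and 33890 ± 3960 in TGFβ1FKO fibroblasts (SD, n = 4 each), which is 101% of the control level.

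The 95% intervals of limma's log2 fold changes give the differences that the values of each gene still allow. They lay inside -0.6 to 0.6 in 44 of 45 genes (97.8%), against 72.2% of all genes tested and 92.4% of the 11561 genes whose mean normalised count reached 50. The exception was *Ccne2*, whose interval ran from -0.08 to 0.69. The lowest bound of the 45 was -0.51, in *Cenpa*, and the intervals of genes with less spread were narrower, from -0.10 to 0.19 in *Rrm1* and from -0.21 to 0.14 in *Pcna*. The S phase genes had a median log2 fold change of 0.04, with 6 lower and 11 higher, and the mitosis genes one of -0.03, with 16 lower and 12 higher. This contrast between S phase and mitosis genes was not tested.

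**Figure D2:**
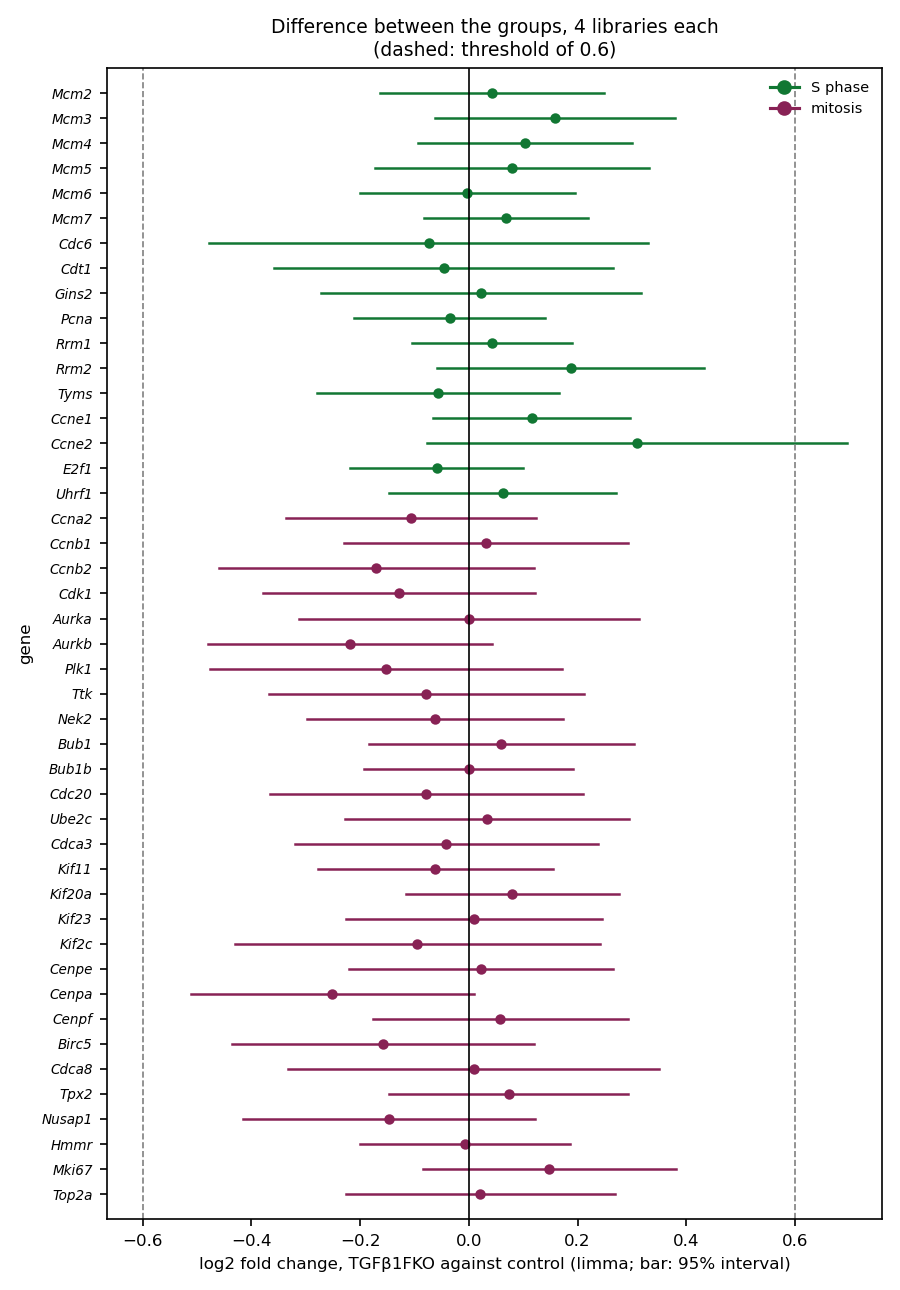
Log2 fold change of TGFβ1FKO against control for each of the 45 genes (points) with its 95% interval in limma (bars), S phase genes in green and mitosis genes in purple, and dashed lines at -0.6 and 0.6. Every bar crosses 0, and the bar of *Ccne2* alone passes a dashed line.

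What did differ was the level from library to library within each group. For each library the median over the 45 genes of the log2 deviation from the gene's mean over 8 libraries was taken. It was 0.11, 0.10, 0.01 and -0.22 in control replicates 1 to 4 and 0.14, -0.27, 0.14 and -0.01 in TGFβ1FKO replicates 1 to 4. Control replicate 4 and TGFβ1FKO replicate 2 were thus the low libraries of their groups, and the group means of the library medians were 0.00 ± 0.15 and 0.00 ± 0.19 (SD, n = 4 each). Control replicate 4 was the lowest control library in 39 of 45 genes (86.7%), against 28.5% of all genes, and TGFβ1FKO replicate 2 the lowest of its group in 42 of 45 (93.3%), against 27.7%. The pair was named low from the medians of these same 45 genes, so the shares only describe how evenly the genes follow them. In the 28 mitosis genes TGFβ1FKO replicate 2 was lowest in all 28 and control replicate 4 in 25. The exceptions among controls were *Mcm7*, *Cdt1*, *Ccne1*, *Cenpe*, *Mki67* and *Cenpf*, and those in TGFβ1FKO were *Rrm2*, *Ccne1* and *Ccne2*.

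In the S phase genes the library medians were 0.10, 0.03, -0.02 and -0.24 in control and 0.10, -0.16, 0.15 and 0.01 in TGFβ1FKO. In the mitosis genes they were 0.12, 0.16, 0.07 and -0.20 in control and 0.16, -0.31, 0.13 and -0.02 in TGFβ1FKO. The same pair of libraries was lowest in both kinds of gene. Within the groups the log2 range over 4 libraries had a median of 0.38 in control and 0.44 in TGFβ1FKO, while the absolute log2 fold change between the groups had a median of 0.06 over the 45 genes. Both within-group ranges exceeded the difference between the groups in 44 of 45 genes (97.8%), against 87.9% of all genes. A range over 4 libraries and a difference of group means are unlike measures, and the range is usually the larger. The median within-group SD of the log2 value was 0.20 in the 45 genes, 0.15 in all genes and 0.12 in genes whose mean normalised count reached 50.

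**Figure D3:**
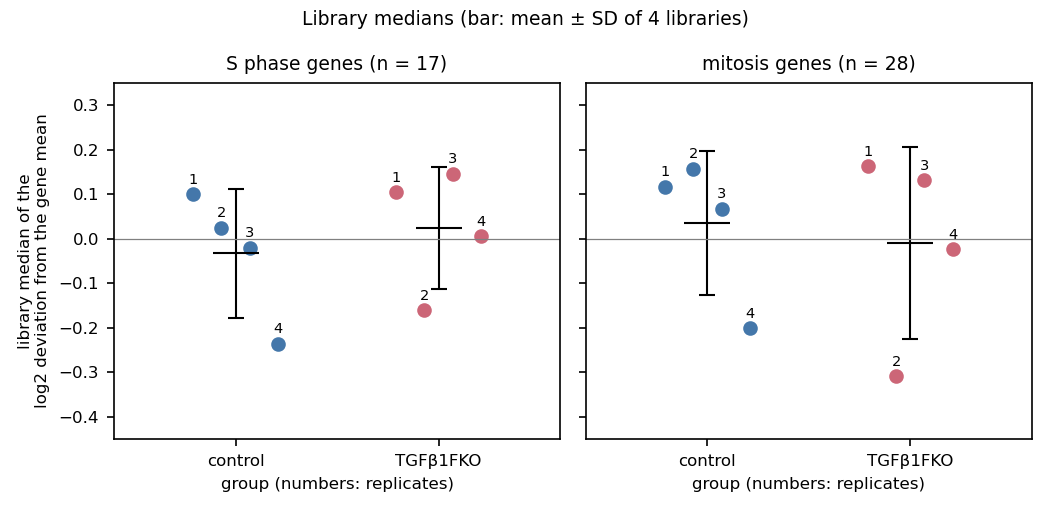
Library medians of the log2 deviation from the gene mean, for the 17 S phase genes (left) and the 28 mitosis genes (right), with 1 point per library numbered by replicate and bars for the mean and SD of 4 libraries. Control replicate 4 (-0.24 and -0.20) and TGFβ1FKO replicate 2 (-0.16 and -0.31) sit below the other libraries of their groups.

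**Figure D4:**
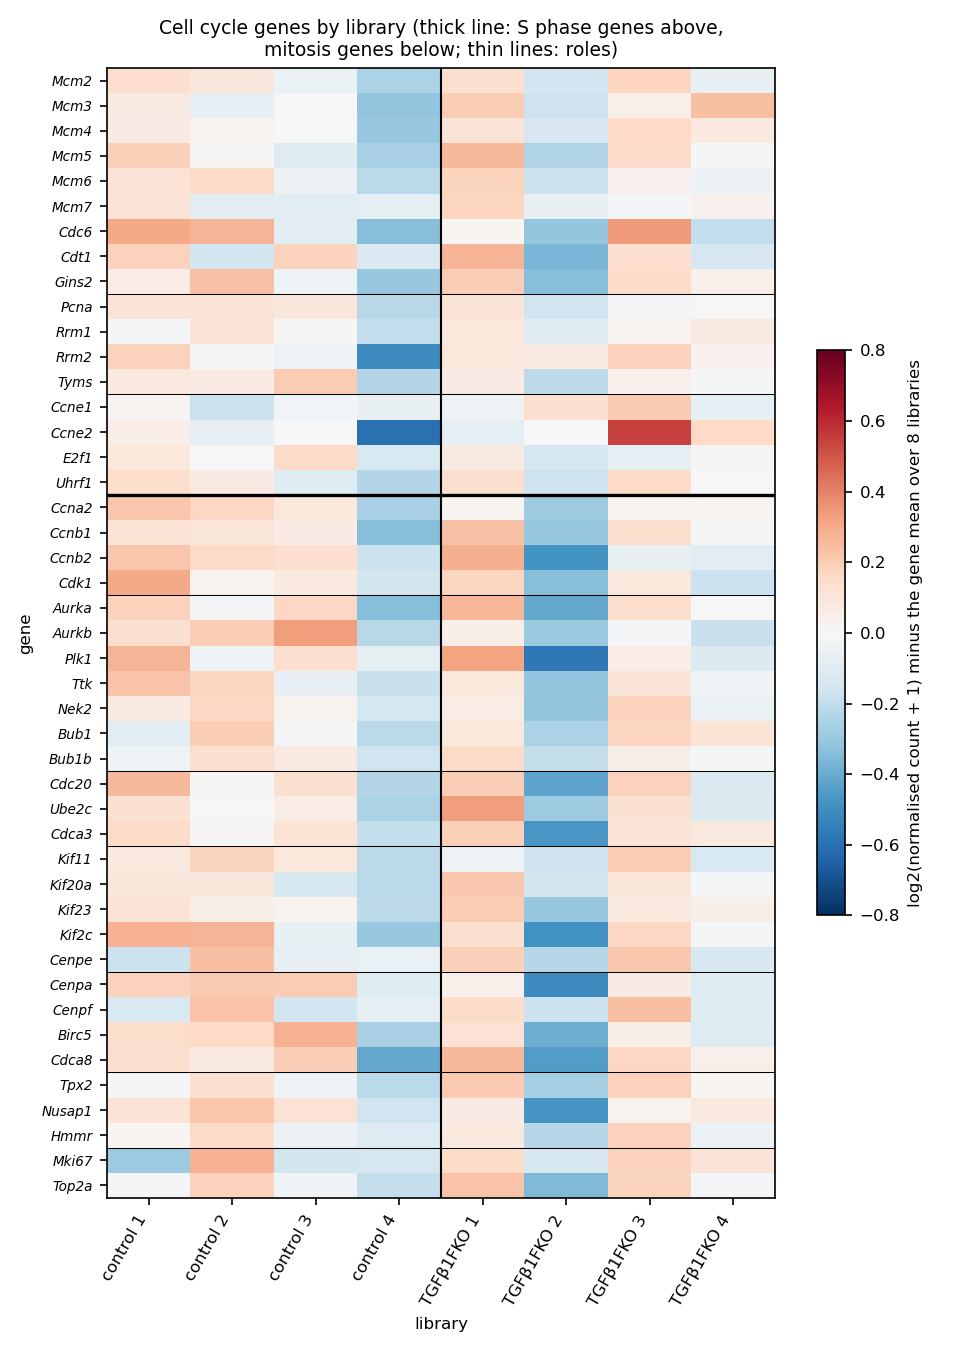
Log2(normalised count + 1) minus the gene mean over 8 libraries for the 45 genes (rows, S phase above the thick line and mitosis below it) in the 8 libraries (columns), red above and blue below the mean. The columns of control replicate 4 and TGFβ1FKO replicate 2 are blue in most rows, and no block of rows separates the groups.

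Neither low library was the shallowest of its group, since control replicate 4 had 19705522 recovered reads and TGFβ1FKO replicate 2 had 18849394. Among the markers of other cell types, the summed normalised count of 7 of 8 Schwann cell genes was 724.4, 847.9, 1049 and 475.0 in control and 302.1, 211.3, 278.2 and 250.4 in TGFβ1FKO, lowest in the same pair of libraries. The groups of this sum did not overlap, and 3 of its 7 genes were called lower. The fibroblast sum was highest in that pair (1640000 and 1554000), but most of it came from *Col1a1*, *Col1a2* and *Col3a1*. Not every fibroblast marker followed it, and *Thy1* was highest in neither library of the pair. The melanocyte sum of 3 of 6 genes was also highest in the pair (332.8 and 308.6), with *Dct*, *Tyr* and *Tyrp1* not in the table. The endothelial sum of 9 genes ranged from 4993 to 5280 in control and from 4540 to 5525 in TGFβ1FKO. Most of it was *Eng*, with means of 4390 and 4409. Of the 9 genes 8 were lower in TGFβ1FKO, with a median log2 fold change of -0.47. None was called, and 2 had an unadjusted p under 0.05 (limma), against 7.46% of all genes. Control replicate 4 was the lowest control in 6 of the 9, and TGFβ1FKO replicate 2 the lowest of its group in 1. The pericyte sum of 5 of 6 genes ranged from 1155 to 1912 and from 1188 to 1619. The 5 of 8 macrophage genes in the table summed to 563.1 to 652.8 in control and 379.5 to 621.4 in TGFβ1FKO, with *Ptprc*, *Adgre1* and *Itgam* not in it. The 4 of 10 keratinocyte genes summed to 112.7 to 152.1 and 147.8 to 172.9, without *Krt5* and *Krt14*. Most of the control sum was *Krt10*, with means of 69.48 and 69.2. Of the 4 genes 2 were lower and 2 higher in TGFβ1FKO, and none was called. The 2 higher genes, *Trp63* and *Dsp*, had an unadjusted p under 0.05 (limma), against 7.46% of all genes. *Dsp* had means of 22.19 and 44.8, and its groups did not overlap (log2 fold change 1.01). The skeletal muscle sum of 2 of 7 genes, *Des* and *Acta1*, ranged from 566.9 to 976.4 in control and from 700.1 to 930.5 in TGFβ1FKO. The part of other cell types in the library pattern was not tested.

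Replication licensing and origin firing was represented by 9 genes, of which *Mcm2* to *Mcm7* encode the helicase that opens DNA, *Cdc6* and *Cdt1* load it and *Gins2* helps to start it. *Mcm2* had normalised counts of 912.8, 885.1, 802.8 and 699.2 in control and 911.2, 747.7, 938.3 and 797.7 in TGFβ1FKO (log2 fold change 0.04, SE 0.10). *Mcm5* had 579.8, 512.1, 473.5 and 424.7 against 609.2, 429.8, 565.5 and 503.0 (log2 fold change 0.08, SE 0.12). In both genes control replicate 4 and TGFβ1FKO replicate 2 were lowest, and the other TGFβ1FKO libraries fell within or just above the control range. *Cdc6* had 116.1, 113.7, 88.7 and 74.1 against 95.3, 75.6, 119.6 and 82.0 (log2 fold change -0.07, SE 0.19), with libraries far apart within each group. Over the 9 genes the log2 fold changes ran from -0.07 to 0.16, the latter in *Mcm3*, and the lowest adjusted p was 0.743 (limma with Benjamini-Hochberg adjustment). *Mcm7* shares exon bases with *Ap4m1* and *Cops6* on the opposite strand, and *Gins2* shares 2758 with *Gse1*.

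Of the 4 genes of nucleotide supply and DNA synthesis, *Rrm1* and *Rrm2* encode the subunits of ribonucleotide reductase and *Tyms* thymidylate synthase. *Pcna* had normalised counts of 1479, 1481, 1468 and 1182 in control and 1481, 1233, 1364 and 1385 in TGFβ1FKO (log2 fold change -0.04, SE 0.08). In the controls replicates 1 to 3 lay within 1468 to 1481, and replicate 4 stood apart below them. *Rrm2* had 1250, 1090, 1073 and 778.2 against 1168, 1161, 1252 and 1128 (log2 fold change 0.19, SE 0.11, adjusted p = 0.728, limma). It was the 1 gene of these 4 in which TGFβ1FKO replicate 2 was not the lowest of its group, and the TGFβ1FKO libraries lay close together in the upper part of the control range, the highest of them level with its top. *Tyms* had 373.4, 370.8, 408.1 and 300.2 against 370.0, 306.5, 363.7 and 351.2 (log2 fold change -0.06, SE 0.10), with the groups overlapping.

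The G1/S regulators were the E type cyclins, which carry cells into S phase with CDK2, the factor E2F1 and UHRF1, which keeps DNA methylation through replication. *Ccne1* had normalised counts of 437.0, 381.4, 424.7 and 413.8 in control and 419.6, 471.2, 498.2 and 409.9 in TGFβ1FKO (log2 fold change 0.12, SE 0.08). In this gene neither low library was the lowest, and TGFβ1FKO replicates 2 and 3 lay above all controls. *Ccne2* (ENSMUSG00000028212, chromosome 4, 11191351 to 11204779) had 115.3, 106.2, 110.9 and 73.1 against 105.4, 110.8, 162.8 and 124.1. Its log2 fold change of 0.31, the highest of the 45, had an SE of 0.18 (adjusted p = 0.722, limma, and p = 0.257 in a two-sided exact permutation test). The groups overlapped, control replicate 4 was lowest and TGFβ1FKO replicate 3 highest, and 609 of its exon bases are shared with *Ints8* on the opposite strand. *E2f1* had 814.7, 767.1, 853.8 and 706.1 against 807.9, 700.1, 731.6 and 772.2 (log2 fold change -0.06, SE 0.07). *Uhrf1* had 609.9, 579.1, 516.7 and 471.1 against 604.1, 493.0, 618.6 and 555.1 (log2 fold change 0.06, SE 0.10), so that both genes had overlapping groups and the low pair at the bottom.

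The mitotic cyclins and their kinase form the engine of entry into mitosis. *Ccna2* had normalised counts of 883.5, 847.9, 802.8 and 631.1 in control and 768.3, 620.3, 770.6 and 767.8 in TGFβ1FKO (log2 fold change -0.11, SE 0.11). *Ccnb1* had 1159, 1149, 1121 and 848.4 against 1263, 867.9, 1182 and 1068 (log2 fold change 0.03, SE 0.12). TGFβ1FKO replicate 2 stood apart below its group in *Ccna2*, and control replicate 4 below its group in *Ccnb1*. *Cdk1* had 1065, 877.6, 910.4 and 777.3 against 971.0, 680.4, 914.2 and 765.6 (log2 fold change -0.13, SE 0.12). Its groups overlapped, as did those of *Ccnb2*, with a log2 fold change of -0.17, and the lowest adjusted p of the 4 genes was 0.805 (limma). *Ccna2* shares 510 exon bases with *Exosc9* on the opposite strand.

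The kinases and checkpoint proteins of mitosis were represented by 7 genes, among them *Plk1* and *Aurkb*, which encode Polo-like kinase 1 and the kinase of the chromosomal passenger complex. *Plk1* had normalised counts of 936.9, 761.8, 853.8 and 738.7 in control and 968.0, 522.0, 810.4 and 721.3 in TGFβ1FKO (log2 fold change -0.15, SE 0.15). TGFβ1FKO replicate 1 was the highest and replicate 2 the lowest of all 8 libraries, so that the whole range lay inside 1 group. *Aurkb* had 350.1, 367.6, 403.6 and 274.6 against 330.4, 261.0, 318.0 and 283.6 (log2 fold change -0.22, SE 0.12, adjusted p = 0.704, limma). All TGFβ1FKO libraries of *Aurkb* lay below control replicates 1, 2 and 3, and 3 of them above control replicate 4. The other 5 genes, *Aurka*, *Ttk*, *Nek2*, *Bub1* and *Bub1b*, had log2 fold changes from -0.08 to 0.06.

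The anaphase promoting complex ends mitosis by tagging securin and cyclin B for destruction, with CDC20 as activator and UBE2C as its ubiquitin-conjugating enzyme. *Cdc20* had normalised counts of 1547, 1304, 1413 and 1098 in control and 1484, 965.2, 1469 and 1197 in TGFβ1FKO (log2 fold change -0.08, SE 0.13). Both groups spread widely and overlapped. *Ube2c* and *Cdca3* had log2 fold changes of 0.03 and -0.04.

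Kinesins move chromosomes and spindle poles, and 5 of them were on the list. *Kif11*, the motor that pushes spindle poles apart, had normalised counts of 614.2, 656.6, 617.6 and 499.7 in control and 564.6, 518.8, 668.4 and 535.1 in TGFβ1FKO (log2 fold change -0.06, SE 0.10). *Kif2c*, which takes microtubules apart at centromeres, had 573.8, 570.6, 452.4 and 382.2 against 516.9, 337.6, 530.6 and 469.8 (log2 fold change -0.10, SE 0.15). Its libraries spread more than those of most of the 45 genes (within-group SD of the log2 value 0.29), and the groups overlapped. *Kif20a*, *Kif23* and *Cenpe* had log2 fold changes from 0.01 to 0.08, and *Kif20a* shares 1271 exon bases with *Cdc23* on the opposite strand.

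Of the 4 genes of the centromere and the passenger complex, *Cenpa* encodes the histone H3 variant that marks centromeres. *Cenpa* (ENSMUSG00000029177, chromosome 5, 30666777 to 30674830) had normalised counts of 603.9, 615.2, 612.1 and 496.8 in control and 547.4, 373.9, 555.5 and 495.2 in TGFβ1FKO. Its log2 fold change of -0.25, the lowest of the 45, had an SE of 0.12, with an interval from -0.51 to 0.01 and the lowest adjusted p of the list, 0.671 (limma, and p = 0.114 in a two-sided exact permutation test). All TGFβ1FKO libraries lay below control replicates 1 to 3, and control replicate 4 lay between TGFβ1FKO replicates 4 and 1. *Birc5*, which encodes survivin of the passenger complex, had 530.8, 537.6, 584.4 and 402.0 against 523.0, 367.6, 500.7 and 448.7 (log2 fold change -0.16, SE 0.13). *Cdca8*, which encodes borealin of the same complex, had 448.2, 431.4, 470.2 and 309.1 against 491.6, 301.4, 460.9 and 422.1 (log2 fold change 0.01, SE 0.16). Its within-group SD of the log2 value was 0.29, and the lowest library of each group lay at nearly the same level. *Cenpf*, a large kinetochore protein gene, had 488.6, 624.7, 479.0 and 507.6 against 588.9, 472.2, 628.6 and 498.6 (log2 fold change 0.06, SE 0.11).

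Among the spindle assembly genes, *Tpx2*, the activator of Aurora A, had normalised counts of 1407, 1561, 1386 and 1225 in control and 1649, 1185, 1622 and 1441 in TGFβ1FKO (log2 fold change 0.07, SE 0.10). TGFβ1FKO replicates 1 and 3 lay above all controls and replicate 2 below them. *Nusap1* and *Hmmr* had log2 fold changes of -0.15 and -0.01. *Mki67* (chromosome 7, 135689784 to 135716361), whose product Ki-67 is the common marker of cycling cells, had 1187, 1758, 1310 and 1324 against 1605, 1327, 1649 and 1557 (log2 fold change 0.15, SE 0.11, adjusted p = 0.788, limma). Its lowest control was replicate 1 and its highest library of all was control replicate 2. *Top2a* had 1960, 2249, 1942 and 1730 against 2318, 1548, 2237 and 1957 (log2 fold change 0.02, SE 0.11), with the highest and the lowest value both in TGFβ1FKO.

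The rest of the cycle was described with 4 further lists of 117 genes, all of them in the table. Of these 0 were called, 11 had an unadjusted p under 0.05 (6 lower and 5 higher) and 3 had groups that did not overlap. These counts were read against the background shares of 7.46% for the unadjusted level and 3.79% for groups without overlap, and lay near them. Without control replicate 4 the count at the unadjusted level was 17, and without TGFβ1FKO replicate 2 or control replicate 3 it was 5. The median log2 fold change was -0.01 in the 22 genes of the list of CDK inhibitors and pocket proteins, and 0.02 in the 21 G1 cyclins, kinases and activators. It was -0.02 both in the 34 other S phase genes and in the 40 other mitosis genes. The list of 22 also holds genes of other kinds, among them *Trp53*, *Gadd45a* and *E2f4*. At the unadjusted level there were 2 lower and 1 higher genes of that list, and 4 higher and 0 lower of the 21 G1 genes. There were 1 lower of the 34 S phase genes and 3 lower of the 40 mitosis genes. Of all genes 3.87% were lower and 3.59% higher at that level. The count of higher G1 genes stood above that share, and the lists were not tested as sets. Control replicate 4 was lowest among controls in 33 of the 40 other mitosis genes and TGFβ1FKO replicate 2 in 33 of its group, against 8 and 12 of the list of 22.

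The 4 G1 genes were the 3 D type cyclins, which couple growth signals to CDK4 and CDK6, and *Myc*. *Ccnd1* (chromosome 7, 144929931 to 144939925) had normalised counts of 4797, 4881, 5676 and 6184 in control and 5577, 9261, 6987 and 7102 in TGFβ1FKO (log2 fold change 0.41, SE 0.13, adjusted p = 0.51, limma). Here TGFβ1FKO replicate 2, the low library of the 45 genes, was the highest, and only TGFβ1FKO replicate 1 lay inside the control range. The two-sided exact permutation test gave p = 0.0857, and 1100 exon bases are shared with *LTO1* on the opposite strand. *Ccnd2* had 11250, 11700, 10610 and 12710 against 11520, 15450, 14310 and 13840 (log2 fold change 0.25, SE 0.09, adjusted p = 0.562, limma), again with TGFβ1FKO replicate 2 highest. *Ccnd3* had 2006, 1940, 1934 and 1863 against 2144, 2157, 2280 and 2012 (log2 fold change 0.15, SE 0.05, adjusted p = 0.587, limma). All its TGFβ1FKO libraries lay above all controls (p = 0.0286 in the exact permutation test, which cannot give less for groups of 4). *Myc* had 1558, 1419, 1382 and 1428 against 1550, 1603, 1678 and 1544 (log2 fold change 0.14, SE 0.06, adjusted p = 0.64, limma), with overlap through control replicate 1. *Foxm1*, which drives mitosis genes, had 734.7, 807.5, 708.6 and 647.9 against 878.8, 646.2, 708.3 and 673.6 (log2 fold change -0.002, SE 0.10), with its lowest values in the same pair of libraries as the 45 genes.

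Of the CDK inhibitors, *Cdkn1a* had normalised counts of 16690, 15260, 16140 and 16770 in control and 16960, 19370, 16660 and 17880 in TGFβ1FKO (log2 fold change 0.13, SE 0.06, adjusted p = 0.674, limma). TGFβ1FKO replicate 2 was highest, and the groups overlapped. *Cdkn1b*, which encodes p27, had 831.0, 949.9, 1007 and 933.3 against 872.7, 818.1, 824.6 and 835.4 (log2 fold change -0.15, SE 0.07, adjusted p = 0.658, limma), with overlap through control replicate 1. *Cdkn1c*, which encodes p57, had 314.9, 444.1, 422.5 and 484.9 against 427.7, 199.9, 305.6 and 284.7 (log2 fold change -0.48, SE 0.19, adjusted p = 0.637, limma), with TGFβ1FKO replicate 1 inside the control range. *Cdkn2b*, the p15 gene known as a target of TGFβ in epithelial cells, had 1695, 1509, 1885 and 1635 against 1463, 1826, 1550 and 1690 (log2 fold change -0.04, SE 0.08). Its libraries were interleaved. The 1 gene of the list of CDK inhibitors and pocket proteins that was higher at the unadjusted level was *Btg2*, which is neither. It is an antiproliferative gene, named here after its values were seen, with a log2 fold change of 0.14.

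In the remaining lists *Sgo1*, the protector of centromere cohesion, had normalised counts of 197.0, 234.8, 215.1 and 198.5 in control and 189.5, 148.1, 158.6 and 150.7 in TGFβ1FKO. Every TGFβ1FKO library lay below every control (log2 fold change -0.39, SE 0.11, adjusted p = 0.459, limma). *Hjurp*, the chaperone of CENP-A, named here after its values were seen, also had groups without overlap, with means of 1756 ± 76.0 and 1604 ± 108 (SD, n = 4 each) and a log2 fold change of -0.13. *Pbk*, a mitotic kinase gene, had 264.1, 282.6, 266.1 and 214.3 against 217.9, 191.6, 214.2 and 226.0 (log2 fold change -0.27, SE 0.11), and *Nasp*, a histone chaperone gene, had 470.6, 450.5, 471.3 and 395.0 against 415.6, 327.3, 406.0 and 381.1 (log2 fold change -0.23, SE 0.09). Both overlapped through control replicate 4, and none of these genes passed the adjusted threshold.

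**Figure D5:**
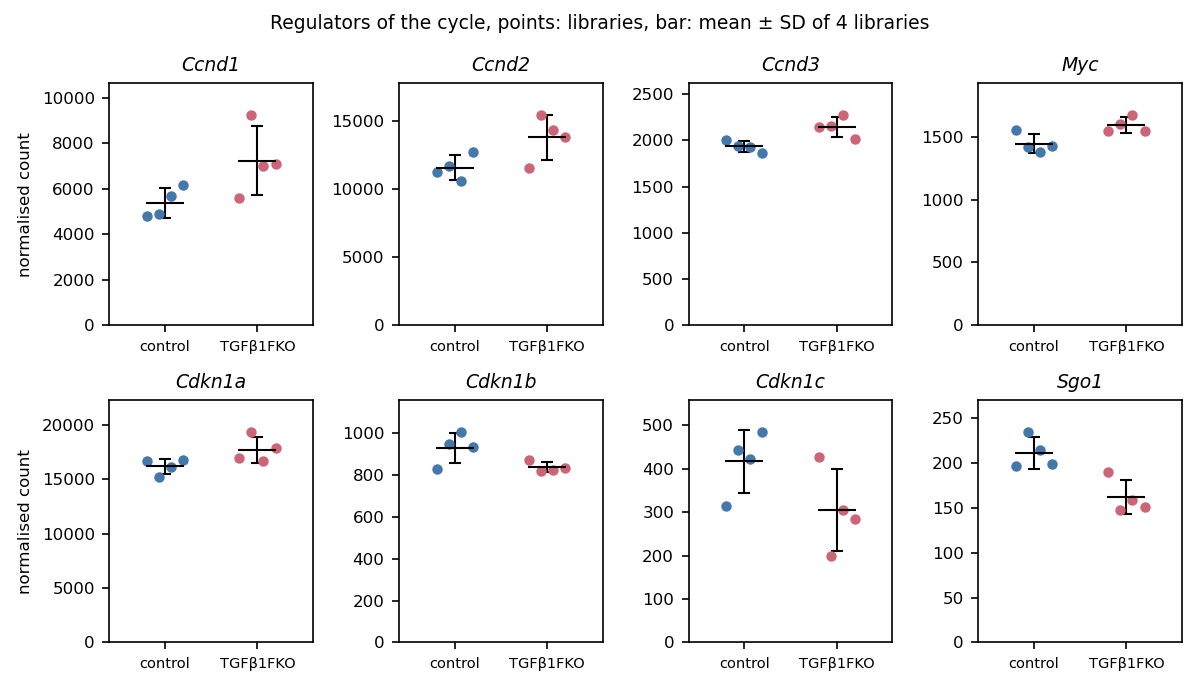
Normalised counts of 8 regulators of the cycle, with 1 point per library and bars for the mean and SD of 4 libraries, each axis starting at 0. All but *Cdkn1a* were among the 11 of 117 genes with an unadjusted p under 0.05 (limma), and none was called. *Cdkn2b* and *Foxm1*, whose groups differed little, are not shown. *Ccnd3* and *Sgo1* are the panels without overlap of the groups, and TGFβ1FKO replicate 2 is the highest point for *Ccnd1* (9261), *Ccnd2* (15450) and *Cdkn1a* (19370).

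The genes outside the list that followed the median of the 45 most closely over the 8 libraries, among genes whose mean normalised count reached 50, were *Efhd2* (Pearson r = 0.992), *Cotl1* (0.982), *Prc1* (0.977), *Jpt2* (0.968), *Dbf4* (0.964), *Anln* (0.962), *Ranbp1*, *Mettl9*, *Cacng7* and *Clns1a*. *Prc1* and *Anln* were on the list of other mitosis genes. Without control replicate 4 and TGFβ1FKO replicate 2, r was 0.959 for *Efhd2*, 0.821 for *Prc1* and 0.65 for *Ranbp1*. *Fzd8* ran most opposite (-0.982, and -0.932 without the pair). These are descriptions over 8 libraries that share 1 normalisation, chosen as the extremes of the table.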

How the data were processed

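RNA-seq libraries of 4 control and 4 TGFβ1FKO cultures were grouped by genotype from the labels. Per the labels' processing notes, the submitters used CASAVA 1.8, HISAT2 2.0.5 on GRCm38 (mm10), featureCounts 1.5.0-p3, R 4.3.2 and DESeq2 1.42.0. The annotation release is not given in the sources used here. The authors left out genes with few reads and deposited DESeq2-normalised counts, a signal made of reads divided by the library's size factor plus 0.5. Subtracting the offset gave whole reads for 100% of values (tolerance 0.001). The table's own fold changes and p-values were not used. With the offset removed, log2(normalised count + 1) was compared over 15111 genes with limma 3.58.1 (mean-variance trend) in R 4.3.3, with Benjamini-Hochberg adjustment over all genes. This pseudocount understates fold changes of low genes. For single genes an exact permutation test, two-sided, was run as well. The tests were tested on simulated data. Alternatives were edgeR 4.0.16 and DESeq2 1.42.0 on recovered reads, TMM scaling, pseudocounts of 0.5 and 5, a minimum of 10 reads, other thresholds, a replicate block and libraries left out. Coordinates, exon lengths and overlaps are from GENCODE M21 on GRCm38, whose release may differ from that of the files. The 45 genes, the lists and the roles were chosen with earlier results of these data known. Named genes were 21 listed members, any other member among the 3 largest fold changes or within-group SDs, passing an unadjusted p under 0.05 or without overlap, and, of the 4 pathway lists, 6 fixed genes and up to 8 by p. In the symbol of *Sgo1*, the current name replaced an older one. Intervals cover the spread between these samples only.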

Additional observations from a re-analysis of the deposited data

Results flagged for a closer look

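In 4 groups of 4 libraries, 1 library stood apart from the other 3 by Dixon's criterion, out of 80 groups tested over the named genes and the library medians, and chance gives about 1 in 20, or 4. In *Ccna2*, TGFβ1FKO replicate 2 had a normalised count of 620.3 against 767.8 to 770.6 in the other TGFβ1FKO libraries. In *Ccnb1*, control replicate 4 had 848.4 against 1121 to 1159 in the other controls. In *Pcna*, control replicate 4 had 1182 against 1468 to 1481. In *Cenpa*, control replicate 4 had 496.8 against 603.9 to 615.2. All 4 values were low, and they came from the pair of libraries with the lowest medians over the 45 genes. The 4 genes are among those 45 and helped to set the medians, so this match is no separate evidence. The 80 groups come from the same libraries and are not independent of each other.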

How the results depend on the processing

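The counts of 0 called genes among the 45 and among the 117 genes of the pathway lists were the same under all alternatives, while the number called in the whole table ranged from 3 to 56 (13 in the reported test). The median log2 fold change of the 45 stayed between -0.08 and 0.09. The number of the 45 at an unadjusted p under 0.05 was 0 with edgeR, with DESeq2 and with the other scaling, pseudocounts and filter. It ranged from 0 to 4 with 1 library left out, with 4 (*Ccna2*, *Cenpa*, *Birc5* and *Aurkb*, all lower) without control replicate 4, 2 (*Ccnb2* and *Cenpa*, lower) without TGFβ1FKO replicate 1 and 1 (*Mcm3*, higher by 0.24 on the log2 scale) without TGFβ1FKO replicate 2. Single genes came up without TGFβ1FKO replicate 3 (*Cenpa*, lower), control replicate 1 (*Rrm2*, higher) and control replicate 2 (*Mki67*, higher). Without control replicate 4 and TGFβ1FKO replicate 2 together, a choice made after seeing the data, 2 of the 45 reached it, *Cenpa* (-0.20) and *Aurkb* (-0.27), and 7 of the 117. The number among the 117 was 11 and ranged from 5 to 17 with 1 library left out, with 17 without control replicate 4, 5 without TGFβ1FKO replicate 2 or control replicate 3, 6 without TGFβ1FKO replicate 4 and 7 without control replicate 1 or 2. Of the 25 named members, 12 changed the sign of their log2 fold change in at least 1 of 18 alternatives and 13 in none, *Ccne2* (0.16 to 0.39) and *Cenpa* (-0.33 to -0.12) among the latter. With the replicate number as a block, 1 of the 45 (*Cenpa*, -0.25) and 9 of the 117 had an unadjusted p under 0.05, and 31 genes of the table were called. Deviations of same-numbered libraries correlated at -0.05 to 0.08, and 3 of 8 libraries correlated best with their own number. These values show no strong pairing by number and cannot exclude a weak one. The causes of these shifts were not tested. Relative to the level, counting error is largest in the genes with the lowest mean normalised counts, *Cdc6* (95.6) and *Ccne2* (113.6). Its share in the spread of these genes was not tested.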
